A study of Rattus norvegicus with 30 samples.

Results

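The mitochondrial ribosomal proteins were taken here as the genes whose platform symbol starts with Mrpl or Mrps followed by a digit, on probesets that carry a single gene symbol. The rule found 73 genes, represented by 97 probesets, among 14217 genes with a symbol on the array. Of the 73, 46 belong by symbol to the large subunit (Mrpl) and 27 to the small subunit (Mrps). All 73 passed the filter on low signal, which 11604 of the 14217 genes passed. The rule reads symbols only and uses no measured value.

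The study dosed primary rat hepatocytes, the parenchymal cells of the liver, with sodium valproate, an antiepileptic drug that is a branched short-chain fatty acid and an inhibitor of histone deacetylases. The 6 groups were 10 mM sodium valproate for 48 h, 10 mM for 24 h, 0.5 mM for 48 h, 0.5 mM for 24 h, water (the vehicle) for 48 h and water for 24 h, with 5 arrays each and 30 in all. The cells were commercially frozen hepatocytes of male Sprague Dawley rats, thawed, plated and dosed on day 3 of culture, and each array carried total RNA from a well that the submitters describe as an independent culture. The labels do not give the rats' age, whether several animals were pooled or how many animals supplied the cells, so the p-values below measure only the spread between these cultures.

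Mitochondrial ribosomes translate the few messenger RNAs that mitochondrial DNA encodes, all of them for membrane subunits of the oxidative phosphorylation complexes. Their ribosomal RNAs are made inside the organelle, but every ribosomal protein is encoded in the nucleus, made in the cytosol and imported. Some of these proteins descend from bacterial ribosomal proteins and others are found only in mitochondria. Hepatocytes are rich in mitochondria, and valproate is known for impairing mitochondrial fatty acid oxidation in liver.

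Promoter sequences were available for 59 of the 73 members in RefSeq's table for the rat assembly GRCr8. The 4 shown belong to the members with an entry that rose most (Mrpl41, Mrpl28) and fell most (Mrpl54, Mrpl58) at 10 mM for 24 h, so that promoters of opposite responses stand side by side. Each runs 5′ to 3′ on the gene's strand, from 250 bases before to 30 bases after the start site, and capitals mark a motif match. Mrpl41 lies on the minus strand at chr3:28179726-28180005, Mrpl28 on the plus strand at chr10:15652929-15653208, Mrpl54 on the plus strand at chr7:9103275-9103554 and Mrpl58 on the plus strand at chr10:101145092-101145371.
Mrpl41: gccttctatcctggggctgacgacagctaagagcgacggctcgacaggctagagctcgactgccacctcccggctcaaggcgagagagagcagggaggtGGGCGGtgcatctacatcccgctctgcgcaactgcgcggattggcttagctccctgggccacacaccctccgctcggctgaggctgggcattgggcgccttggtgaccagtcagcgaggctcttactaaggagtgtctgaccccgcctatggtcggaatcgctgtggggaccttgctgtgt
Mrpl28: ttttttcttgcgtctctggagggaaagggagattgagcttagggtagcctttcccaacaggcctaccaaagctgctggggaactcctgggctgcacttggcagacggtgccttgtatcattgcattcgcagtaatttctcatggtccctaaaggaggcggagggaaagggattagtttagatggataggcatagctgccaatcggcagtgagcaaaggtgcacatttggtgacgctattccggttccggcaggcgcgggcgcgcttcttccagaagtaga
Mrpl54: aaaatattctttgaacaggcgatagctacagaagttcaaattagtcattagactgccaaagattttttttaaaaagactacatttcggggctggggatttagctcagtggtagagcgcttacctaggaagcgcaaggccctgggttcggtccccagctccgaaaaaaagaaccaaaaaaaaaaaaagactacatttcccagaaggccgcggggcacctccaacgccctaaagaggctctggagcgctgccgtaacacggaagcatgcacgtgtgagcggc
Mrpl58: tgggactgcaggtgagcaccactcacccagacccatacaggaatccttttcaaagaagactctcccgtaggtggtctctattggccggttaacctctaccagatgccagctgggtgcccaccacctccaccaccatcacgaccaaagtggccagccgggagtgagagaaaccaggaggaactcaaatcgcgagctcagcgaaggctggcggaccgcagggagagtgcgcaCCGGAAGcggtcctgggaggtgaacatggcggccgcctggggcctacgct
In the window of 300 bases (250 before and 50 after the start), Mrpl41 held GGGCGG, the core letters bound by SP1, from -151 to -146, and Mrpl58 held CCGGAAG, letters of ETS factors such as GABP, from -20 to -14. Mrpl28 and Mrpl54 held none of the 4 motifs searched, which are named below. A match is a description of these letters and not a binding site.

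Over the 59 members with a sequence, searched on both strands, the YY1 letters AAGATGGC stood in 14 promoters (23.7%), compared with 5.38% of the 9666 tested genes with a promoter and 3.44% of all 27457 promoters of this length. CCGGAAG stood in 20 (33.9%), against 17.2% of tested genes and 9.22% of all promoters. The NRF1 palindrome stood in 9 (15.3%), against 9.74% and 4.71%. GGGCGG was in 30 (50.8%), against 61% and 34.9%. None of the 4 motifs contains another, and the median GC content was 56% in members, 60.7% in tested genes and 52.3% in all promoters. At 10 mM for 24 h CCGGAAG was present in 4 of 16 promoters of members that rose, 11 of 27 of those that fell and 5 of 16 of the rest. The 3 classes differ by few promoters, and no test was made.

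Values below are MAS5 signals, a linear brightness scale on which the submitters' processing had set every array to the same trimmed mean (1500.5 to 1500.7). Differences are on the log2(signal + 16) scale from a limma fit over all 30 arrays, with Benjamini-Hochberg adjustment over all 21729 probesets tested. A member is called higher, lower or changed at an adjusted p under 0.05, and each gene is read from its brightest probeset. In bulk RNA, fewer cells of a type and less RNA per cell cannot be told apart.

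All 6 hepatocyte markers were above the filter, with summed signals between 215318 and 353188 over the 30 arrays. Of the other lists, 6 of 6 stellate, 3 of 5 Kupffer, 3 of 5 endothelial and 1 of 4 biliary markers on the array passed it, and no marker was at 0. At 10 mM the hepatocyte sum was 215318 to 258850 after 24 h, against 261337 to 334437 in water, and 238749 to 265646 after 48 h, against 269377 to 291795. The stellate sum was 2490 to 2966 at 10 mM for 24 h, against 3613 to 4002 in water, and 2672 to 3281 at 48 h, against 3629 to 4259. The biliary sum, with 1 of its 4 markers above the filter, was 6243 to 7091 at 10 mM for 24 h, overlapping with water. At 48 h it was 4851 to 6518 at 10 mM, against 10428 to 12110 in water. At 0.5 mM for 24 h the stellate sum (4371 to 4555) and the biliary sum (8924 to 9438) lay above water, the biliary water range being 7047 to 8606, and at 48 h both overlapped with water. The part of these differences in the results below was not tested. The ratio of actin signal at its 3′ probesets to that at its 5′ probesets, which rises as RNA is degraded, stood above 2 on the log2 scale on 3 arrays: water 24 h replicate 3 (2.76) and 0.5 mM 48 h replicates 3 (2.77) and 4 (2.23). It was 1.70 on water 24 h replicate 2 and 1.74 on 0.5 mM 48 h replicate 5. Counts of called members over both subunits that rest on those groups are given with and without these arrays. Other counts, such as those by subunit, of members without overlap and in other gene lists, are given with all arrays only.

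At 10 mM for 24 h, mitochondrial ribosomal transcripts moved in both directions, and more of them fell. When arrays were centred on cytosolic ribosomal protein genes, which set the median of all genes at 0.16, 24 were lower and 20 higher. By the scaling as deposited, 18 of the 73 members rose and 33 fell relative to water, 69.9% in all. Of all 11604 tested genes 56.1% were called (31.1% higher, 25% lower). The members' median difference was -0.14, compared with 0.07 over all tested genes. Their differences were of modest size: the median absolute difference was 0.32, against 0.40 over all genes, and 4 members were called with a difference of 1 or more in size (Mrps28, Mrpl54, Mrpl58 and Mrpl48, all lower), where 15.2% of all genes did. The values of the 5 treated and 5 water cultures did not overlap for 43 members, and for 45.6% of all genes. Without the 3 arrays with an actin ratio above 2, 16 members rose and 35 fell, where 31.9% and 24.3% of all genes did. Without all 5 named arrays 16 rose and 31 fell, where 31.7% and 23.4% of all genes did. Of 26 members named for this comparison and called, 24 kept their call and direction without the 3 arrays and 22 without the 5, the exceptions being Mrpl38 and Mrps18c, and with the 5 removed also Mrpl12 and Mrps31.

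**Figure D1:**
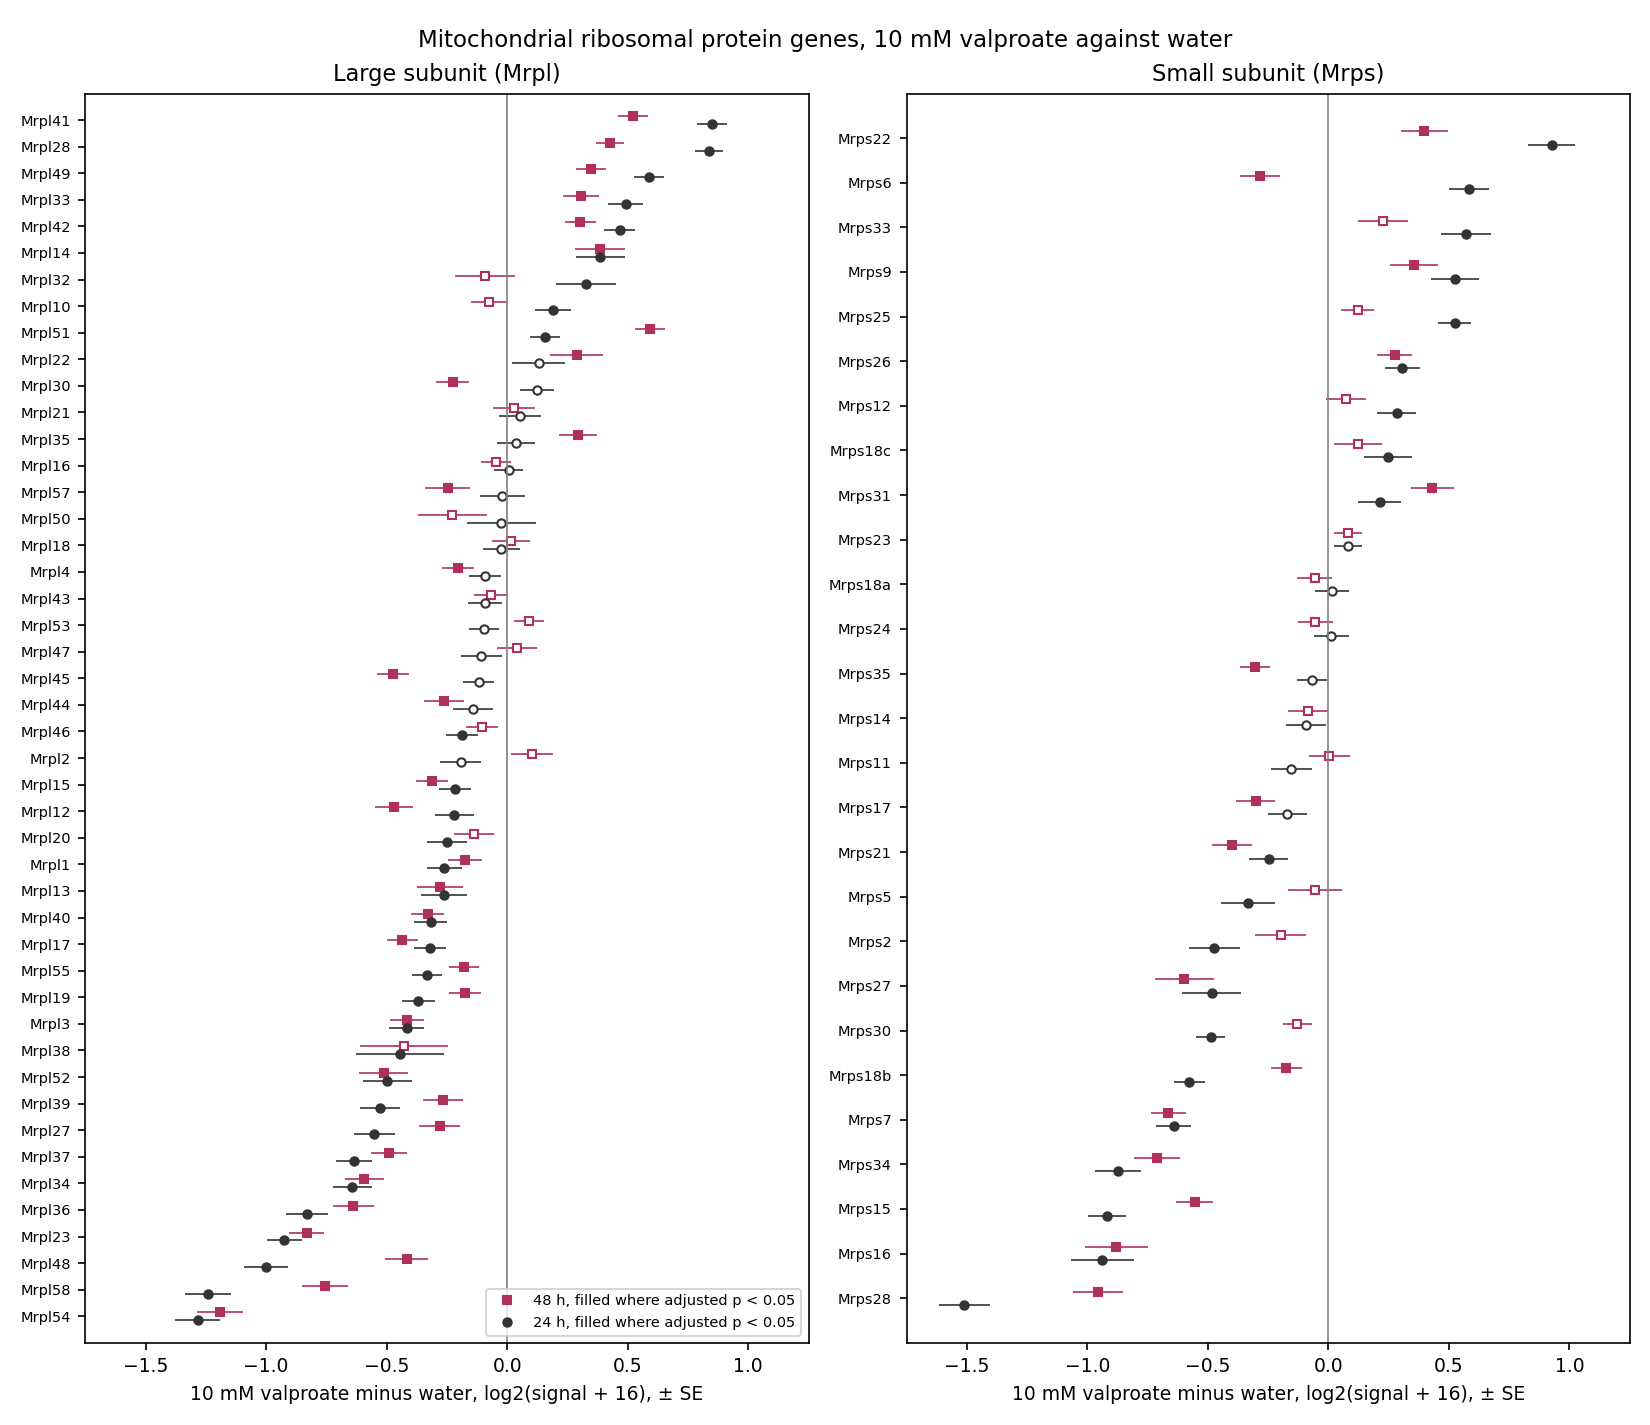
Log2 difference between 10 mM sodium valproate and water for each of the 73 genes, large subunit on the left and small subunit on the right, ordered by the 24 h value; squares are 48 h, circles 24 h, bars the standard error, and filled symbols passed an adjusted p under 0.05. The values run from -1.51 (Mrps28) to 0.93 (Mrps22) at 24 h, and from -1.19 (Mrpl54) to 0.59 (Mrpl51) at 48 h.

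Mrps28, a small subunit protein, fell the furthest. Its signals were 1464, 1306, 1124, 966 and 1200 at 10 mM for 24 h, against 3743, 3533, 2693, 3723 and 3673 in water. Every treated culture was below every water culture, and the water culture at 2693 was replicate 3, the array with the high actin ratio. The difference was -1.51 ± 0.105 (SE, n = 5 and 5), a fold of 0.351 (limma, adjusted p = 1.36e-13). Mrpl54, a large subunit protein without a bacterial counterpart, had 3757, 3863, 3524, 3997 and 3703 in treated cultures and 9135, 9832, 8898, 8820 and 9297 in water cultures. The groups were far apart beside their narrow spread, and the fold was 0.411 (limma, adjusted p = 6.10e-13).

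Mrpl58, also known as Ict1, is a peptidyl-tRNA hydrolase that is built into the large subunit and can release stalled peptides. Its signals were 1707, 1872, 1966, 2193 and 1945 at 10 mM for 24 h and 4393, 4945, 3946, 4873 and 4827 in water, without overlap (fold 0.423, limma adjusted p = 1.68e-12). For Mrpl48 the treated cultures had 1589, 1746, 1820, 1694 and 1967 and the water cultures 3748, 3458, 3219, 3665 and 3610, again without overlap (fold 0.500, limma adjusted p = 5.73e-11). Next in size were Mrps16, Mrpl23, Mrps15 and Mrps34, with log2 differences of -0.94, -0.92, -0.92 and -0.87. Mrps16 and Mrps15 are homologues of bacterial S16 and S15, Mrpl23 sits at the exit of the peptide tunnel, and Mrps34 is a mitochondria-specific protein needed for small subunit stability in mouse.

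The largest rise was in Mrps22, a mitochondria-specific small subunit protein in which human mutations impair mitochondrial translation. Its signals were 5322, 5285, 5645, 5237 and 4492 at 10 mM for 24 h and 2872, 2569, 2175, 3157 and 2939 in water. All treated cultures lay above all water cultures, with a log2 difference of 0.93 ± 0.0980 (SE; limma, adjusted p = 1.65e-09). A second Mrps22 probeset was too dim to be tested, and with both averaged the difference was 0.553 and still called.

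Mrpl41, a large subunit protein also described as pro-apoptotic when overexpressed, had 25438, 28865, 28302, 28566 and 26641 at 10 mM and 14964, 17141, 14130, 15214 and 15076 in water. Mrpl28, a homologue of bacterial L28, had 9525, 10397, 10723, 10680 and 10017 at 10 mM and 5555, 6267, 6186, 5123 and 5639 in water. Neither gene had overlapping groups, and the folds were 1.80 (limma, adjusted p = 2.98e-13) and 1.79 (limma, adjusted p = 2.18e-13). Mrpl49 rose by 0.59, Mrps6 by 0.58, Mrps33 by 0.57, and Mrps9 and Mrps25 by 0.52 each. In none of these 5 did treated and water cultures overlap.

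**Figure D2:**
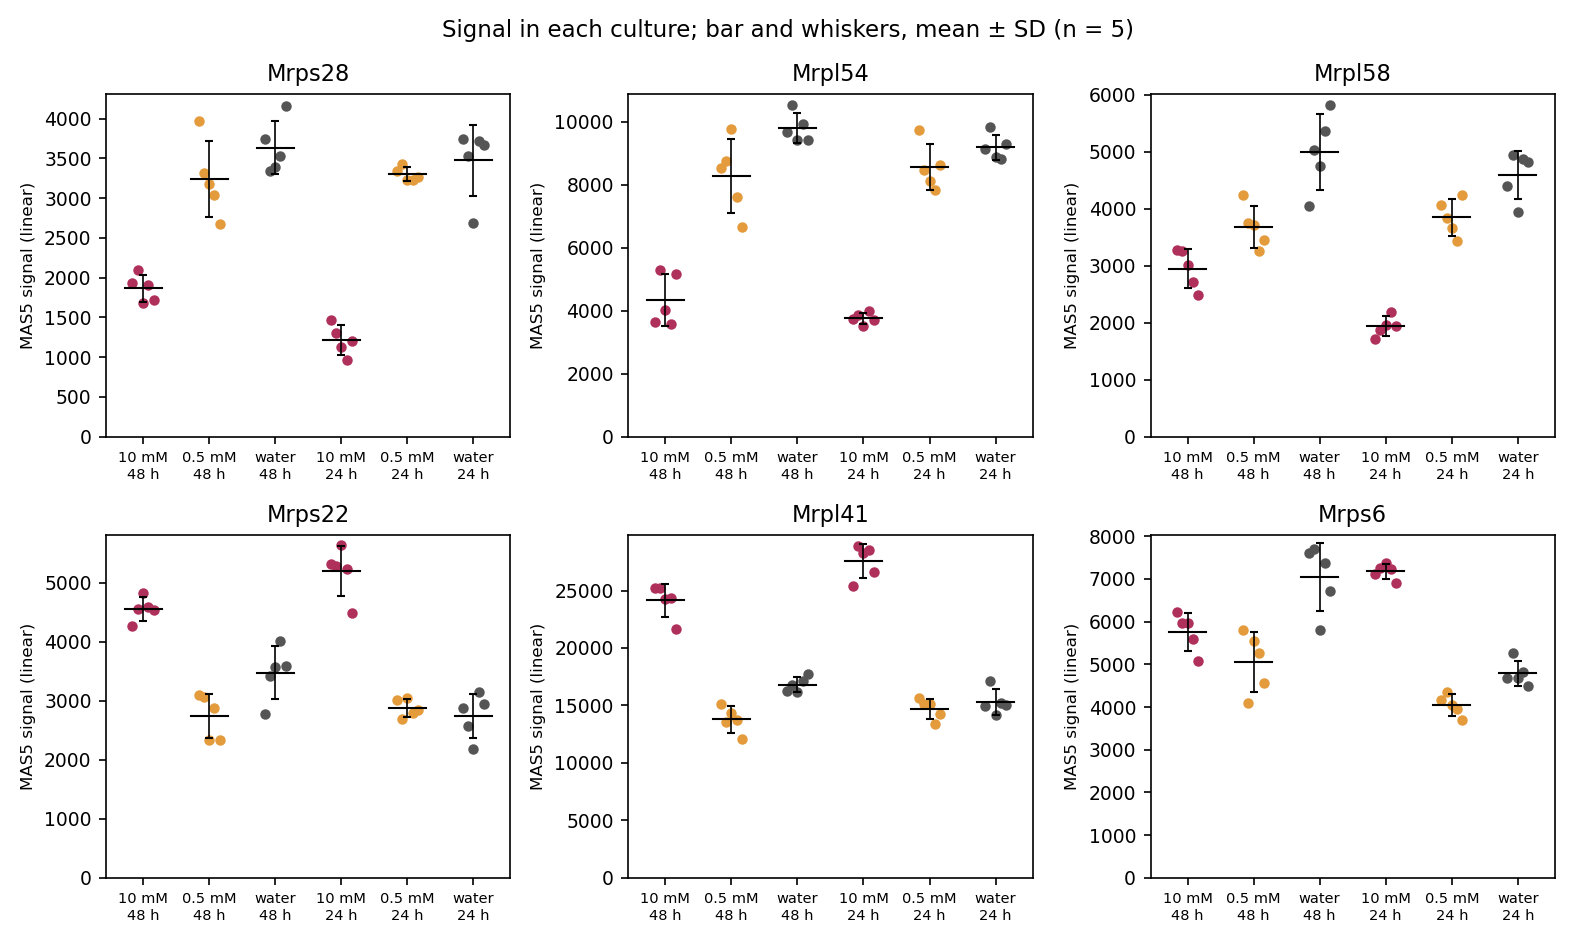
MAS5 signal of Mrps28, Mrpl54, Mrpl58, Mrps22, Mrpl41 and Mrps6 in each of the 30 cultures, by group, from 10 mM to 0.5 mM to water at 48 h and then at 24 h; points are cultures and bars the mean ± SD (n = 5). Mrps28, Mrpl54 and Mrpl58 are low at 10 mM at both times, Mrps22 and Mrpl41 are high, and Mrps6 at 10 mM is above water at 24 h and mostly below it at 48 h.

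Members of both subunits were called. In the large subunit 9 of 46 members rose and 22 fell at 10 mM for 24 h (67.4%), with a median of -0.17. In the small subunit 9 of 27 rose and 11 fell (74.1%), with a median of -0.09, where 56.1% of all tested genes were called. The symbols Mrps18a and Mrps30 belong to proteins found in the large subunit, and with both moved there the counts were 9 higher and 23 lower of 48 and 9 higher and 10 lower of 25. The median of the large subunit minus that of the small was -0.0366 ± 0.0404 on the log2 scale in the 10 mM 24 h cultures (SD, n = 5, each gene relative to its mean over all arrays) and -0.00428 ± 0.0502 in water. At 48 h it was -0.00324 ± 0.0390 at 10 mM and 0.0350 ± 0.0415 in water. These SDs are of single cultures and do not measure the error of a difference between group means. Whether the subunits differ was not tested.

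Within the small subunit, the lists by origin had medians of opposite sign. The 10 small subunit proteins listed as specific to mitochondria had a median of 0.15 at 24 h and 0.10 at 48 h, and the 15 listed bacterial homologues -0.17 and -0.20. The first of these lists holds Mrps18b, which is a homologue of bacterial S18, so the split by origin is not clean. In the large subunit the 19 mitochondria-specific members had medians of -0.14 and -0.26 and the 27 bacterial homologues -0.19 and -0.17. These are descriptions of short lists, and no difference between lists was tested.

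After 48 h at 10 mM members again moved in both directions. Of the 73 members, 13 rose and 35 fell (65.8%), but 22 rose and 17 fell when arrays were centred on cytosolic ribosomal protein genes, which set the median of all genes at 0.22. By the scaling as deposited, 49.8% of all tested genes were called (27.6% higher, 22.3% lower). The members' median was -0.17, compared with 0.03 over all genes, and the median absolute difference 0.28, compared with 0.34. Mrpl54 was the one member past 1 on the log2 scale, as were 10.7% of all genes. In the large subunit 9 rose and 24 fell (71.7%, median -0.19), and in the small subunit 4 rose and 11 fell (55.6%, median -0.09). Treated and water cultures did not overlap for 43 members, and for 42.3% of all genes.

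Mrpl54 had 3655, 5299, 4012, 3577 and 5176 at 10 mM for 48 h and 9677, 10553, 9424, 9936 and 9432 in water, a fold of 0.438 (limma, adjusted p = 5.72e-12). The treated cultures were more spread than at 24 h but stayed below all water cultures. Mrps28 had 1936, 2091, 1680, 1907 and 1713 at 10 mM and 3746, 3341, 3394, 3526 and 4155 in water, a fold of 0.516 (limma, adjusted p = 5.14e-09). Mrps16 had 5511, 8959, 4956, 5531 and 4618 at 10 mM and 9897, 11292, 10053, 10585 and 11178 in water. The treated culture at 8959, replicate 2, stood close to water, and with it the log2 difference was -0.88 (limma, adjusted p = 1.44e-06). Mrpl23 (-0.83), Mrpl58 (-0.75), Mrps34 (-0.71), Mrps7 (-0.66) and Mrpl36 (-0.64) also fell without overlap. Mrps7 is a homologue of bacterial S7, which binds early in small subunit assembly, and Mrpl36 of bacterial L36.

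By its brightest probeset Mrpl51 showed the largest rise at 48 h, with 8913, 8727, 9386, 9525 and 9144 at 10 mM and 5653, 6154, 6368, 6216 and 5910 in water (fold 1.51, limma adjusted p = 2.22e-09). The 2 sets of values were about as tight as each other and well apart. Its other probesets had smaller differences of 0.44, 0.33 and 0.06 (limma, adjusted p = 6.18e-06, 0.156 and 0.627). Mrpl41 had 25178, 25223, 24276, 24379 and 21631 at 10 mM and 16226, 16774, 16126, 17107 and 17737 in water, a difference of 0.52. Mrps31 and Mrpl28 rose by 0.43 each, Mrps22 by 0.40, Mrpl14 by 0.39, and Mrps9 and Mrpl49 by 0.35 each, all without overlap. With both Mrps22 probesets averaged, the 48 h call was lost (0.405, adjusted p = 0.0910 by limma).

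The 10 mM cultures of 24 and 48 h, each with its own water cultures, gave similar orders of the members. Across the 73 genes the 48 h and 24 h differences had a Pearson r of 0.863, where all 11604 tested genes had 0.838. Genes of one ribosome are not independent, and r is a description. Of the 13 members that rose at 48 h and the 18 at 24 h, 11 were the same genes, and of the 35 and 33 that fell, 27 were the same. Another 9 members were called at 48 h and not at 24 h, 12 at 24 h and not at 48 h, and 13 at neither time.

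**Figure D3:**
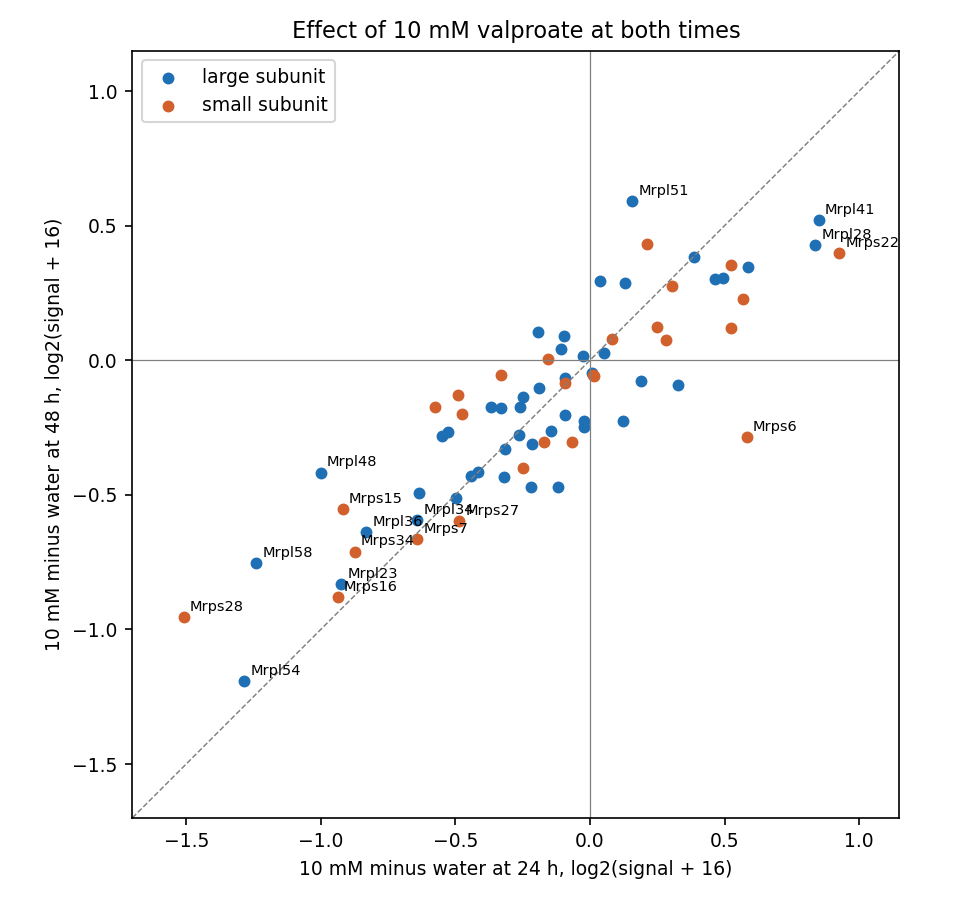
Log2 difference between 10 mM sodium valproate and water at 48 h (vertical) against 24 h (horizontal) for the 73 genes, by subunit, with the line of equal values dashed. Most genes lie near the line, and Mrps6 lies below it, at -0.28 at 48 h and 0.58 at 24 h.

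One member was called in opposite directions. Mrps6, a homologue of bacterial S6, had 6221, 5963, 5958, 5595 and 5073 at 10 mM for 48 h and 7616, 7696, 5799, 7371 and 6723 in water. The water culture at 5799 lay inside the treated range, and the difference was -0.28 (limma, adjusted p = 0.00579). At 24 h it had 7120, 7254, 7368, 7229 and 6911 at 10 mM and 4681, 5268, 4681, 4831 and 4497 in water, wholly above (limma, adjusted p = 4.84e-07). The change of the effect from 24 to 48 h, tested as the interaction of dose and time, was -0.87 (limma, adjusted p = 6.33e-06). In water alone Mrps6 was higher by 0.55 at 48 h than at 24 h (limma, adjusted p = 4.76e-05), so the water cultures moved as well as the treated ones.

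The interaction passed for 14 members, 7 in each direction, where 12.8% of all genes passed (6.63% higher, 6.20% lower). Centred on cytosolic ribosomal protein genes, which set the median of all genes at 0.07, 10 were higher and 3 lower. By the scaling as deposited, 7 were higher and 8 lower without the 3 arrays of highest actin ratio. Of all genes 7.34% and 7.33% were. Without the 5 arrays 9 were higher and 8 lower, where 7.10% and 7.05% of all genes were. A positive value here means a difference that was more positive, or less negative, at 48 h. Mrpl48 (0.58), Mrps28 (0.55), Mrpl58 (0.49) and Mrpl51 (0.44) had the highest values. For Mrpl48, Mrps28 and Mrpl58 this was a smaller loss at 48 h, and for Mrpl51 a larger gain. Mrps22 (-0.53), Mrpl28 (-0.41) and Mrps25 (-0.40) followed Mrps6 at the other end, each with a smaller rise at 48 h. With the probesets of a gene averaged, the calls of Mrps22 (-0.148) and Mrpl51 (0.169) were lost, and with the centring those of Mrps22 (-0.434) and Mrps25 (-0.309). Mrps25 had a difference of 0.12 at 48 h that was not called (limma, adjusted p = 0.171).

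Among members with special roles, Mrps12, the homologue of the bacterial decoding centre protein S12, rose at 10 mM for 24 h by 0.28 (limma, adjusted p = 0.00434) and had a difference of 0.07 at 48 h (limma, adjusted p = 0.514). Mrpl12, the stalk protein, which has also been reported to bind the mitochondrial RNA polymerase, fell by 0.47 at 48 h (limma, adjusted p = 1.06e-05). Its 24 h difference of -0.22 lost its call without 10 mM 24 h replicate 4 (-0.195) or without water 24 h replicate 3 (-0.198), and with its 2 probesets averaged at both times. Mrpl45, which lies near the tunnel exit and the inner membrane, had 4104, 4111, 3903, 3768 and 3836 at 10 mM for 48 h and 5757, 5357, 5438, 5490 and 5346 in water. The groups did not overlap (-0.47, limma adjusted p = 4.98e-07), whereas at 24 h the difference was -0.12 (limma, adjusted p = 0.143), and the interaction was -0.35 (limma, adjusted p = 0.0113). Mrpl44, which has an RNase III-like fold, fell by 0.26 at 48 h (limma, adjusted p = 0.0107), a call lost with the centring (-0.0736).

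The 3 homologues of bacterial S18 went separate ways. Mrps18b fell at 10 mM for 24 h, with 7845, 8405, 8758, 7999 and 8937 against 11990, 13039, 11660, 12527 and 13379 in water (-0.58, limma adjusted p = 3.06e-09). Mrps18a, the large subunit form, had a difference of 0.02 (limma, adjusted p = 0.888). Mrps18c had 0.25 (limma, adjusted p = 0.0401) with overlapping groups, and 6 of the 10 removals of a single array left it uncalled (10 mM 24 h replicates 1, 3 and 4, and water 24 h replicates 2, 3 and 5). At 48 h the Mrps18b difference was -0.17 (limma, adjusted p = 0.0255), lost without water 48 h replicate 5 or 10 mM 48 h replicate 5. Mrps30 fell by 0.49 at 24 h (limma, adjusted p = 4.25e-08) and had -0.13 at 48 h (limma, adjusted p = 0.0896).

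The members with the highest mean signals were Mrpl17, Mrpl41 and Mrpl33, at 25174, 18716 and 15018, and those with the lowest were Mrpl38, Mrps27 and Mrps31, at 937, 1257 and 1993. Signals of different probesets depend on their probes, so they do not order the genes by abundance. Mrpl17 fell by 0.43 at 48 h and 0.32 at 24 h at 10 mM, and Mrpl33 rose by 0.31 and 0.49, each without overlap. Mrps27 fell by 0.60 at 48 h and 0.48 at 24 h by its brightest probeset, but with its 3 probesets averaged neither call held (-0.404 at 48 h and 0.0765 at 24 h). Mrpl38 and Mrps31 had calls at 24 h (limma, adjusted p = 0.0447 and 0.0491) that 13 and 12 of 24 alternatives lost. For Mrpl38 these included removing 10 mM 24 h replicate 1, 4 or 5 or water 24 h replicate 2, 3 or 4, and for Mrps31 10 mM 24 h replicate 2, 3 or 4 or water 24 h replicate 1, 2 or 4.

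Several probesets were present for 18 members. At 10 mM for 24 h the tested probesets of 10 had the same sign, those of 5 differed in sign without both being called, and 3 had a single tested probeset. At 48 h Mrpl57 had probesets called in opposite directions, -0.25 (limma, adjusted p = 0.0326) and 0.27 (limma, adjusted p = 0.0213), so its direction is not settled.

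At 0.5 mM for 24 h few members were called against water. Of the 73, 7 rose and 6 fell, 17.8% in all, where 28.8% of all tested genes were called (12.7% higher, 16.1% lower). The median was 0.01, against 0.02 over all genes, and 10 members did not overlap, where 19.9% of all genes did not. Centred on cytosolic ribosomal protein genes, which set the median of all genes at -0.10, 1 rose and 15 fell. After quantile normalization, with the median of all genes at -0.007, 10 rose and 3 fell. Leaving out the 3 arrays of highest actin ratio, 7 rose and 7 fell, and leaving out the 5, 8 rose and 5 fell. The called members were mostly small subunit genes: 5 rose and 5 fell of 27, and of the 46 large subunit genes 2 rose and 1 fell. None of the 19 large subunit members specific to mitochondria was called by limma, and 3 had an unadjusted p under 0.05. Whether the subunits differ in this share was not tested.

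Mrps23, a mitochondria-specific small subunit protein, had 11443, 12645, 12519, 10968 and 11638 at 0.5 mM for 24 h and 8931, 8917, 8807, 10164 and 8831 in water. No treated culture reached the water range (0.37 ± 0.0572, SE; limma, adjusted p = 1.23e-05). At 10 mM for 24 h Mrps23 had a difference of 0.08 that was not called, and it was lower at 10 mM than at 0.5 mM by a log2 difference of -0.29 (limma, adjusted p = 6.11e-05). Mrps33 (0.38) and Mrps18c (0.36) also rose at 0.5 mM. Neither was called with the centring (0.258 and 0.234), and Mrps18c also lost its call with its probesets averaged (0.161) and with the actin ratio as a covariate (0.251). Mrps16 had 14976, 10691, 9571, 9837 and 11254 against 8269, 8597, 8288, 8709 and 8681 in water. The culture at 14976 was replicate 1, and without it the difference of 0.39 (limma, adjusted p = 0.0309) became 0.278 and was not called, as also without 0.5 mM replicate 5 or water replicate 1 or 3, or without the 5 arrays of high actin ratio.

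Mrps2, the homologue of bacterial S2, had 1703, 2069, 2354, 2306 and 2021 at 0.5 mM for 24 h and 2787, 3212, 3361, 2591 and 2780 in water. The groups did not overlap (-0.49, limma adjusted p = 9.32e-04), and with its 3 probesets averaged the difference was -0.164 and not called. Mrps34 fell by 0.35, Mrps27 by 0.33 and Mrpl12 by 0.32, of which the Mrps27 call was lost under 14 of 24 alternatives, removing 0.5 mM replicate 1, 2, 3 or 5 or water replicate 2, 3 or 4 among them. The counts themselves moved with single arrays: 4 members rose without water replicate 1 or without 0.5 mM replicate 1, and 3 fell without water replicate 2 or without 0.5 mM replicate 3.

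At 0.5 mM for 48 h members of both subunits were lower. Of the 73, 41 fell and none rose by limma, 56.2%, where 26% of all genes were called (11.9% higher, 14.1% lower). The differences were small, with a median of -0.22 against -0.01 over all genes, and 66 of 73 were negative. At an unadjusted p under 0.05, 47 were lower and 0 higher by limma. The share of all genes at that unadjusted threshold is not given here, and the 26% does not stand for it. When centred on cytosolic ribosomal protein genes, which set the median of all genes at 0.14, 11 fell and 2 rose. In the large subunit 29 of 46 fell (median -0.24) and in the small subunit 12 of 27 (median -0.18). The groups did not overlap for 19 members, and for 15.1% of all genes.

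The count was smaller without the arrays with high actin ratios, 3 of which (replicates 3, 4 and 5) are in the 0.5 mM 48 h group. Without the 3 arrays above 2, 26 members fell and none rose, where 12% of all genes fell, and the median was -0.19. Without all 5 arrays named above, a removal chosen after the data were seen, 12 fell and none rose, where 9.42% of all genes fell, and the median was -0.10. With the actin ratio as a covariate 24 fell. Without 0.5 mM replicate 5 alone 27 fell, and in a fit of the compared groups alone 23 fell. The part of RNA quality in the 41 was not tested beyond these values.

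**Figure D4:**
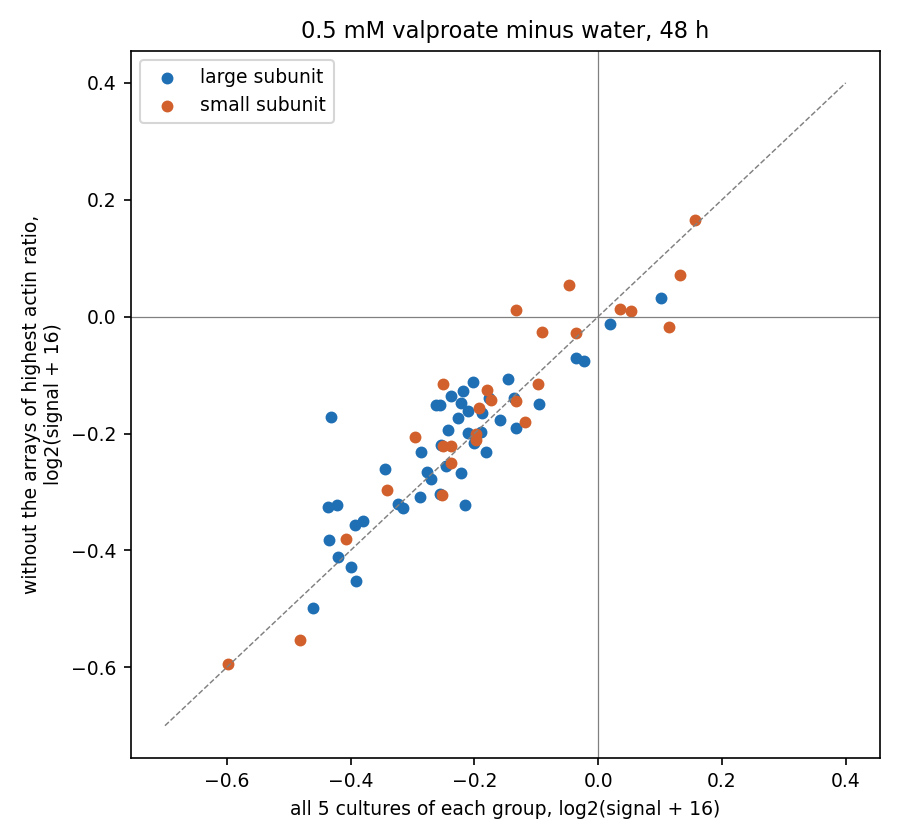
Log2 difference between 0.5 mM sodium valproate and water at 48 h for the 73 genes, with all arrays (horizontal) and without the 3 arrays of highest actin ratio (vertical). Mrpl50 is at -0.43 with all arrays and -0.17 without the 3, while Mrps34 is at -0.60 and -0.59.

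Mrps34 had 9111, 7694, 7872, 6649 and 5522 at 0.5 mM for 48 h and 10454, 10295, 10568, 11886 and 11955 in water. All treated cultures lay below all water cultures (-0.60, limma adjusted p = 2.31e-05), and without the 3 arrays the difference was -0.59 (limma, adjusted p = 2.36e-04). Mrps34 was thus lower than water in all 4 comparisons of a dose with its water group. Mrps6 had 5798, 4092, 5549, 5275 and 4562 at 0.5 mM and 7616, 7696, 5799, 7371 and 6723 in water, with the nearest 2 cultures at 5798 and 5799. Its difference was -0.48 (limma, adjusted p = 6.43e-05), and -0.55 without the 3 arrays.

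Mrpl12 had 9365, 9851, 11001, 8757 and 8430 at 0.5 mM for 48 h and 11295, 13272, 14132, 12894 and 13580 in water, without overlap (-0.46, limma adjusted p = 6.12e-05). Without the 3 arrays it was -0.50 (limma, adjusted p = 9.64e-05). Mrpl20, a homologue of bacterial L20, had 9181, 8245, 6328, 6930 and 6836 at 0.5 mM and 9747, 10165, 9972, 9820 and 10671 in water. It fell by 0.44, and by 0.33 without the 3 arrays (limma, adjusted p = 6.60e-04). Mrpl50 had 13619, 12807, 6494, 8255 and 8759 at 0.5 mM and 13563, 12557, 12719, 12685 and 13345 in water. The 2 cultures with low actin ratios, at 13619 and 12807, lay near or in the water range, the 3 with higher ratios below it, and its call (-0.43, limma adjusted p = 0.0269) was lost without the 3 arrays (-0.17, limma adjusted p = 0.189). Mrps12 fell by 0.41 (limma, adjusted p = 3.94e-04).

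The effect at 0.5 mM was lower at 48 h than at 24 h for 25 members and higher for 1 (Mrps5, 0.44), where 21.7% of all genes passed this interaction (12% higher, 9.69% lower). Centred on cytosolic ribosomal protein genes, which set the median of all genes at 0.23, 6 were higher and none lower. Mrpl50 (-0.75), Mrps33 (-0.63), Mrpl13 (-0.59) and Mrpl20 (-0.57) changed most, though none of the 4 was called with the centring, with the actin covariate or without the 5 arrays. Both 0.5 mM at 48 h and water at 24 h, which hold the 5 arrays, enter this test. Without the 3 arrays 12 members were lower and none higher, where 3.17% of all genes were lower and 4.51% higher. Without the 5 arrays 1 was lower and none higher, where 0.888% of all genes were lower and 1.46% higher. With the actin covariate 3 were lower and none higher.

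The water cultures differed with time as well. At 48 h 16 members were higher than at 24 h and none lower, where 10.1% of all genes were called (5.11% higher, 4.96% lower), and 69 of 73 differences were positive with a median of 0.15 (0.03 over all genes). At an unadjusted p under 0.05, 36 were higher and 0 lower by limma. The share of all genes at that unadjusted threshold is not given here, and the 10.1% does not stand for it. Centred on cytosolic ribosomal protein genes, which set the median of all genes at -0.07, 3 were called higher. Mrps6 rose by 0.55, Mrpl13 and Mrps33 by 0.39 each and Mrpl52 by 0.37, all without overlap. The Mrps6 call held under every alternative, whereas that of Mrpl13 was lost with the actin covariate (0.229) and that of Mrps33 with the covariate, the centring or without water 24 h replicate 3 (0.219 to 0.298). Mrpl52 lost its call under 6 of 24 alternatives (0.139 with its probesets averaged), removing water 24 h replicate 2 or water 48 h replicate 5 among them. The water cultures of 48 h and 24 h did not overlap for 23 members, and for 10.4% of all genes. The count of called members was 14 without the 3 arrays of highest actin ratio, where 5.47% of all genes were higher and 4.57% lower. It was 12 without the 5 arrays, where 4.56% of all genes were higher and 3.97% lower. It was 8 with the actin covariate, 9 without water 24 h replicate 3 alone and 10 without water 48 h replicate 5 alone.

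The members' median on each array, relative to each gene's mean over all 30 arrays, was 0.129 to 0.251 in the 5 water cultures of 48 h, above every other array. It was -0.0785 to 0.0943 at 10 mM for 48 h, -0.221 to 0.0931 at 0.5 mM for 48 h, -0.161 to -0.0852 at 10 mM for 24 h, -0.0132 to 0.0871 at 0.5 mM for 24 h and -0.0755 to 0.0660 in water for 24 h. All 48 h comparisons with water thus share a group that stood high for this family. The pooled SD between arrays of a group was 0.0688 for this median and 0.0421 for the gap between the large and small subunit medians.

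**Figure D5:**
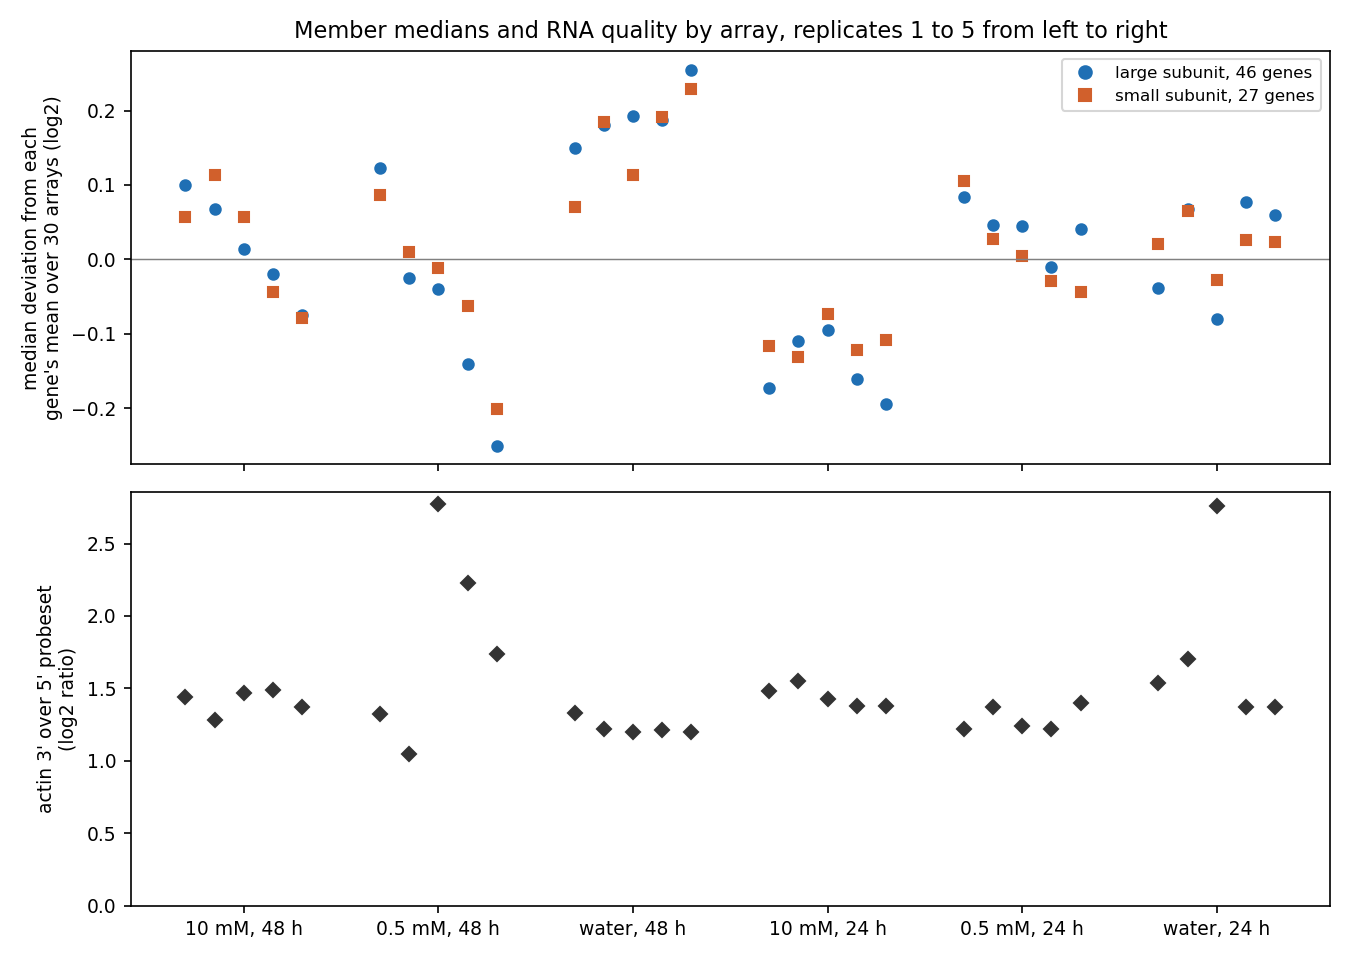
Above, the median deviation of the large and of the small subunit members from each gene's mean over all arrays, for every array, with replicates 1 to 5 from left to right in each group; below, the log2 ratio of 3′ to 5′ actin signal on the same arrays. For the large subunit the water arrays of 48 h stand highest, between 0.149 and 0.255, and the 10 mM arrays of 24 h lie between -0.194 and -0.0952.

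Set directly against 0.5 mM, 10 mM at 24 h had 15 members higher and 35 lower, where 59.3% of all genes were called (32.9% higher, 26.4% lower). Their median was -0.16, against 0.01 over all genes, and the cultures did not overlap for 45 members and for 50.9% of all genes. Centred on cytosolic ribosomal protein genes, which set the median of all genes at 0.23, 25 were higher and 17 lower. At 48 h 25 members were higher and 14 lower, where 53.8% of all genes were called (30.0% higher, 23.8% lower). Their median was 0.08, against 0.04 over all genes, and 27 members and 40.2% of all genes did not overlap. Without the 3 arrays of highest actin ratio 25 were higher and 12 lower at 48 h, with a median of 0.03, as over all genes (0.03). Of all genes 30.0% were then higher and 22.3% lower. Without all 5 arrays of high actin ratio, a removal chosen after the data were seen, 16 were higher and 22 lower. Of all genes 28.9% were then higher and 20% lower, and the median was -0.04 in members and 0.06 over all genes. Mrpl28 was higher at 10 mM than at 0.5 mM by 0.93 at 24 h and 0.65 at 48 h, Mrpl41 by 0.91 and 0.81, and Mrps22 by 0.85 and 0.74, of which the 24 h call was lost with its probesets averaged (0.364). Mrps6 was higher at 24 h (0.83) and Mrpl14 at 48 h (0.65). Mrps28 was lower, at -1.45 and -0.78, as were Mrps16, at -1.32 and -0.79, and Mrpl54, at -1.18 and -0.94. Mrps15 was lower by 1.09 at 24 h, and Mrps27 had -0.71 at 48 h, which became 0.174 with its probesets averaged. The cultures of the 2 doses did not overlap in any of these except Mrps16 at 48 h. Mrps34 differed between the doses at 24 h (-0.52) and was not called at 48 h (-0.11, limma adjusted p = 0.361).

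Other parts of the mitoribosome gene set were read from lists chosen by function, beside the 56.1% of all tested genes called at 10 mM for 24 h and the 49.8% called at 48 h. Of 5 mitoribosome proteins without an Mrp symbol, 1 rose and 3 fell at 10 mM at either time. Dap3, a GTP-binding small subunit protein also named for a role in cell death, rose to a mean signal of 5701 at 10 mM for 24 h, against 3471 in water (0.72, limma adjusted p = 4.99e-09), and by 0.28 at 48 h. Gadd45gip1, a large subunit protein, fell by 0.70 at 24 h, Aurkaip1 by 0.51 and Chchd1 by 0.25. Ptcd3, a pentatricopeptide repeat protein of the small subunit, was not called at 10 mM (0.08 at 24 h and -0.19 at 48 h).

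Of 25 assembly and rRNA-modifying factors, 9 rose and 6 fell at 10 mM for 24 h (60%), and 7 rose and 5 fell at 48 h (48%), shares near those of all genes. Mpv17l2, an inner membrane protein needed for mitoribosome assembly in human cells, reached a mean of 4730 at 10 mM for 24 h, against 2204 in water (1.1, limma adjusted p = 5.50e-12), and rose by 1.08 at 48 h. Mettl17 (1.17) and Mterf3 (0.88) rose at 24 h, and the GTP-exchange-like factor Rcc1l (-1.0) and the rRNA methyltransferase partner of Mterf4, Nsun4 (-0.78), fell.

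Of 13 translation factors, 4 rose and 4 fell at 24 h (61.5%), and 2 rose and 5 fell at 48 h (53.8%), also near those of all genes. The release factor relatives Mtrfr (1.07) and Mtrf1l (0.57) rose at 24 h, the initiation factor Mtif2 fell by 1.00, and Pdf, the deformylase that trims new mitochondrial proteins, fell by 0.45.

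Of 17 genes for mitochondrial DNA, transcription and RNA, 5 rose and 6 fell at 10 mM for 24 h (64.7%), and 5 rose and 3 fell at 48 h (47.1%). Tfam, which packages mitochondrial DNA and starts its transcription, averaged 8297 at 10 mM and 5069 in water (0.71, limma adjusted p = 3.19e-12). The transcription factor Tfb2m rose by 0.79, and Polg2, the accessory subunit of the mitochondrial DNA polymerase, fell by 1.24. Of 10 regulators of mitochondrial biogenesis, 1 rose (Esrra, 0.71) and 6 fell at 24 h (70%), and 1 rose and 2 fell at 48 h (30%). Myc fell by 1.36 at 10 mM for 24 h and by 1.06 at 0.5 mM. Gabpa, which encodes the DNA-binding part of the GABP factor, averaged 851.3 at 10 mM for 24 h and 1749 in water (-1.01, limma adjusted p = 8.50e-10), and had -0.04 at 48 h (limma, adjusted p = 0.806).

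Of 42 tested cytosolic ribosomal protein genes, 1 rose and 8 fell at 10 mM for 24 h (21.4%, median -0.09), and none rose and 25 fell at 48 h (59.5%, median -0.18). At 0.5 mM for 48 h none rose and 13 fell, with a median of -0.14, so this list was lower there too. Relative to each gene's mean over all arrays, its array medians at 24 h were 0.0582 to 0.215 at 0.5 mM and -0.116 to 0.138 in water. Of 76 nuclear genes of oxidative phosphorylation, 13 rose and 25 fell at 10 mM for 24 h (50%), and 13 rose and 32 fell at 48 h (59.2%). At 0.5 mM they stood apart from the mitochondrial ribosomal genes in their counts: 52 rose and none fell at 24 h (68.4%, where 28.8% of all genes were called), and 6 rose and 1 fell at 48 h (9.21%, against 26%). These counts used all arrays and the scaling as deposited, and no test compared the lists.

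The genes whose 6 group means followed the members' mean most closely were Nhej1 (Pearson r = 0.990), Tyw3 (0.975), Clpp (0.970), Lamp5 (0.970) and Tmem179b (0.969), each over 6 group means. Clpp encodes a protease of the mitochondrial matrix, and Nhej1 a factor of DNA end joining. With 6 points and 11604 genes searched, values of this size are a description.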

How the data were processed

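Total RNA from 30 rat hepatocyte cultures was hybridised to 1-colour arrays. The deposited values were intensity (signal) per probeset, made by the authors with MAS5 (version not given in the sources used here), per the submitters' processing notes. Every array had a mean of 1500.5 to 1500.7 after the top and bottom 2% were left out, as MAS5 scaling leaves it, and no further normalization was applied. Precision is set by how many arrays each group has.

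Of 31099 probesets, 57 were controls, 20826 had 1 gene symbol in the platform annotation, 436 had several and 9780 had none. Symbols of all 73 members matched RefSeq by gene ID. The deposited intensity was taken to log2(signal + 16), probesets with a mean under the 30th percentile (7.394) were left out, and limma 3.58.1 in R 4.3.3 (lmFit, eBayes with trend) was fitted over all 6 groups on 21729 probesets, with 24 residual degrees of freedom. The probeset of highest mean stood for a gene. The steps were tested on simulated data. Figures and motif searches used Python 3.11.15 and matplotlib 3.10.9.

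Members, gene lists, tests and alternatives were chosen with earlier results of these data known. Named genes were the 8 largest called in each direction at 10 mM, the largest called at 0.5 mM and in the time comparisons, the brightest and dimmest 3, and members with a special role.

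Arrays were numbered in runs of 6 by title. Arrays of the same run had a median residual correlation of 0.00298 (pairs from -0.139 to 0.392), and those of other runs -0.00194. Such medians do not show whether some arrays of a run were paired, so the samples were fitted as unpaired without settling this. Replicates correlated at 0.943 or more over the 21729 probesets that passed the filter, and no pair was taken for the same library. Mrps36 is not analysed here.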

Additional observations from a re-analysis of the deposited data

Results flagged for a closer look

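In each of the 6 groups 15 genes and 5 summary measures were examined, 120 groups of 5 cultures in all. The genes were the 3 largest called rises and falls at 10 mM against water at each time. The largest called member in each direction of every other comparison was added. A culture was sought whose gap to its nearest neighbour took up most of the range. Chance marks about 1 group in 20 by this criterion, and 9 were marked. In water at 24 h, replicate 3 stood apart for Mrps28 (2693, the others 3533 to 3743), Mrps5 (3766, the others 2797 to 2979), Mrpl50 (6255, the others 10542 to 11951) and the log2 actin ratio (2.76, the others 1.37 to 1.70). At 10 mM for 48 h, Mrpl41 was low in replicate 5 (21631, the others 24276 to 25223), Mrps16 high in replicate 2 (8959, the others 4618 to 5531) and Mrps2 low in replicate 4 (1967, the others 2233 to 2334). In water at 48 h, replicate 1 was low for Mrps2 (1831, the others 2593 to 2838) and had an actin ratio of 1.33, the others 1.20 to 1.22.

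A different effect of the same dose at 48 h and 24 h was tested as an interaction in limma. At 10 mM the effect was more positive at 48 h for Mrpl48 (0.583 ± 0.128 SE, adjusted p = 0.00237), Mrps28 (0.554 ± 0.148, adjusted p = 0.0124), Mrpl58 (0.485 ± 0.135, adjusted p = 0.0170) and Mrpl51 (0.436 ± 0.0880, adjusted p = 0.0010). It was more negative for Mrps6 (-0.867 ± 0.117, adjusted p = 6.33e-06), Mrps22 (-0.528 ± 0.139, adjusted p = 0.0108), Mrpl28 (-0.410 ± 0.0835, adjusted p = 0.00112) and Mrps25 (-0.404 ± 0.0976, adjusted p = 0.00558). With the probesets of a gene averaged, the calls of Mrps22 (-0.148) and Mrpl51 (0.169) were lost, and centring on cytosolic ribosomal protein genes ended those of Mrps22 (-0.434) and Mrps25 (-0.309).

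At 0.5 mM limma called the effect more positive at 48 h for Mrps5 (0.440 ± 0.159, adjusted p = 0.0491), a call lost under 21 of 34 alternatives. It was more negative for Mrpl50 (-0.745 ± 0.201, adjusted p = 0.0104), Mrps33 (-0.633 ± 0.146, adjusted p = 0.00358), Mrpl13 (-0.586 ± 0.136, adjusted p = 0.00363) and Mrpl20 (-0.568 ± 0.119, adjusted p = 0.00167). These 4 calls were lost when the actin ratio was a covariate, with that centring and without the 5 arrays of high actin ratio.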

How the results depend on the processing

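Alternatives covered the pseudocount, the filter, quantile normalization, centring on cytosolic ribosomal protein genes, array weights, the trend, the fit's groups, probeset averaging, the actin ratio and the removal of each array. Counts are of members, higher first. A fold minimum of 2 left 0 and 4 at 10 mM for 24 h, 0 and 1 for 48 h, 0 and 4 for 10 against 0.5 mM at 24 h, and 0 in every other comparison. Centring on cytosolic ribosomal protein genes gave 22 and 17 at 10 mM for 48 h, 1 and 15 at 0.5 mM for 24 h, 2 and 11 for 48 h, 25 and 17 for 10 against 0.5 mM at 24 h, 3 lower in the interaction at 10 mM, 6 and 0 in that at 0.5 mM, and 3 higher in water over time. It set the median of all genes between -0.10 and 0.23 in these comparisons. It also turned Mrps18a (0.132), Mrps18b (0.0150) and Mrps30 (0.0598) at 10 mM for 48 h. The actin covariate gave 4 higher at 0.5 mM for 24 h, 24 lower for 48 h, 0 and 3 in the interaction and 8 in water over time. Quantile normalization left 3 lower at 0.5 mM for 24 h. Without the 3 arrays of highest actin ratio 26 were lower at 0.5 mM for 48 h, and 0 and 12 passed the interaction. Without the 5, chosen after seeing the data, 12 were lower, 16 and 22 differed between doses at 48 h, and 0 and 1 passed the interaction. The compared groups alone gave 23 lower at 0.5 mM for 48 h. The single member higher in the interaction at 0.5 mM, Mrps5, was lost (0) under quantile normalization, the actin covariate, both removals of arrays with a high actin ratio, the fit of the compared groups alone, no filter, no trend and array weights. Averaging probesets put the large minus small subunit median at -0.0115 at 10 mM and 0.0104 at 0.5 mM for 48 h, and turned Mrps27 at 10 mM for 24 h (0.0765) and against 0.5 mM at 48 h (0.174). Removing 1 array gave 4 to 8 higher and 3 to 7 lower at 0.5 mM for 24 h, 27 to 47 lower at 48 h, 0 to 2 higher in the interaction, and 9 to 19 in water over time, and put Mrps18a at 10 mM for 24 h between -0.0311 and 0.0569, below 0 under 4 of them (-0.00521, -0.0311, -0.0272 and -0.000677). At 10 mM such removals gave 13 to 17 higher and 30 to 34 lower at 24 h, and 12 to 13 and 30 to 37 at 48 h. Of 94 called values of named genes, 66 stayed called in the same direction under every alternative and 28 did not under at least 1. With the run of titles as a replicate block, 17 were higher and 33 lower at 10 mM for 24 h, 13 and 35 for 48 h, 8 and 5 at 0.5 mM for 24 h and 0 and 43 for 48 h, so the block moved no count by over 1.5 times. Signal over background was not measured beyond the filter, which the mean signal of every member passed (the lowest was Mrpl38, at 937). Averaging probesets ended at least 1 call each of Mrps27, Mrps22, Mrps18c, Mrps2, Mrpl12, Mrpl51 and Mrpl52. Causes were not tested.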
